A study of Homo sapiens with 16 samples.

Results

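The AP-1 and immediate early factors are transcription factors, many of which cells make within minutes to hours of a growth, stress or differentiation signal. Here they were represented by 10 genes: FOS, FOSL1, FOSL2, JUN, JUNB, JUND, EGR1, KLF4, KLF6 and MYC. Every probe set that the platform annotation assigned to exactly one of these symbols was taken, which gave 21 of the 22283 probe sets of the U133A array and 19 of the 12626 of the U95 array. By gene, the members were 10 of 11963 on U133A.

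FOS and JUN proteins pair through leucine zippers to form AP-1, a dimer that binds short DNA elements in the promoters and enhancers of genes for proliferation, invasion and inflammation. Transcription of FOS and EGR1 is switched on through serum response factor and ternary complex factors of the ETS family, downstream of MAP kinases. JUNB and JUND can oppose JUN, KLF4 and KLF6 are zinc finger factors tied to growth arrest and differentiation in epithelia, and MYC drives cell growth.

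Every array carried RNA of OVCAR3 cells, a human line derived from an ovarian carcinoma. The treated cells received 1,25(OH)2D3, the active vitamin D hormone, at a labelled dose of 0.1 pM for 8, 24 or 72 h, with the additions staggered so that every culture was harvested together. The vehicle group received ethanol alone, and per the series' design text the amount and duration of ethanol were equal in all cultures. No treated array was earlier than 8 h, so a response that ended before then was not measured. The U133A set held 12 arrays, 3 biological replicates in each of 4 groups from 3 independent experiments, and the U95 set held 1 array per group. The values are MAS5 signals, a scaled brightness per probe set that can be compared between arrays for one probe set but not between genes, and the number of arrays limits their precision.

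The U133A arrays resembled one another, with correlations of log2 signals between pairs of arrays over all probe sets from 0.958 to 0.976. CYP24A1, the vitamin D degrading enzyme, had a mean signal of 129.1 ± 102.8 (SD, n = 3) with vehicle and of 6185 ± 379.8, 7330 ± 1883 and 7430 ± 1407 at 8, 24 and 72 h, and GADD45A, a growth arrest gene of the GADD45 family that the design text names, went from 468.2 ± 89.8 to 1332 ± 107, 1800 ± 263.8 and 1943 ± 295.9. All 13 epithelial and ovarian carcinoma markers were above the filter on low signals, with a summed signal of 51679 to 59546 on the vehicle arrays and of 51086 to 60380 on the treated arrays. Of these 13, 1 was called higher at 8 h, 2 higher and 2 lower at 24 h, and 3 higher and 1 lower at 72 h. Of the markers of other cells on the array, 3 of 8 for fibroblasts, 0 of 6 for leukocytes and 1 of 6 for endothelial cells were above the filter, and none of these 4 passed the test at any time. Their summed signals on the vehicle arrays were 1257 to 1394 for fibroblasts, 287.5 to 553.1 for leukocytes and 406.2 to 630.4 for endothelial cells, and on the treated arrays 1205 to 1454, 287 to 609.5 and 410.4 to 592.4.

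The 10 genes did not move together in hormone-treated cells. On U133A, FOS, FOSL2 and JUNB were higher than with vehicle, and EGR1 and KLF4 were lower. JUN and JUND were slightly lower, and MYC had a log2 change of -0.63 at 72 h, without passing the test. FOSL1 and KLF6 did not pass it either. A linear model (limma) on log2 signals was fitted over the 7178 genes above the filter, with Benjamini-Hochberg adjusted p under 0.05 as the threshold. The filter removed FOS and FOSL1, whose vehicle signals were low, so these were read from the same model over all 11963 genes.

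Of the 8 members above the filter, 1 was called at 8 h (JUNB, higher), where 0.766% of all tested genes were called. At 24 h 4 of 8 were called (FOSL2 and JUNB higher, EGR1 and KLF4 lower), against 4.07% of all tested genes. The same 4 genes were called in the same directions at 72 h, against 6.84%. The 3 comparisons use the same vehicle arrays, so they are not independent. The members were chosen with earlier results of these data known. The test of any change over the 3 times called 3 of 8 (FOSL2, JUNB and KLF4), against 5.21%. Without the filter, 2 of 10 were called at 8 h (FOS and JUNB), 2 at 24 h (FOS and KLF4) and 4 at 72 h (FOS, FOSL2, JUNB and KLF4), against 0.385%, 2.11% and 3.64% of all 11963 genes.

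**Figure D1:**
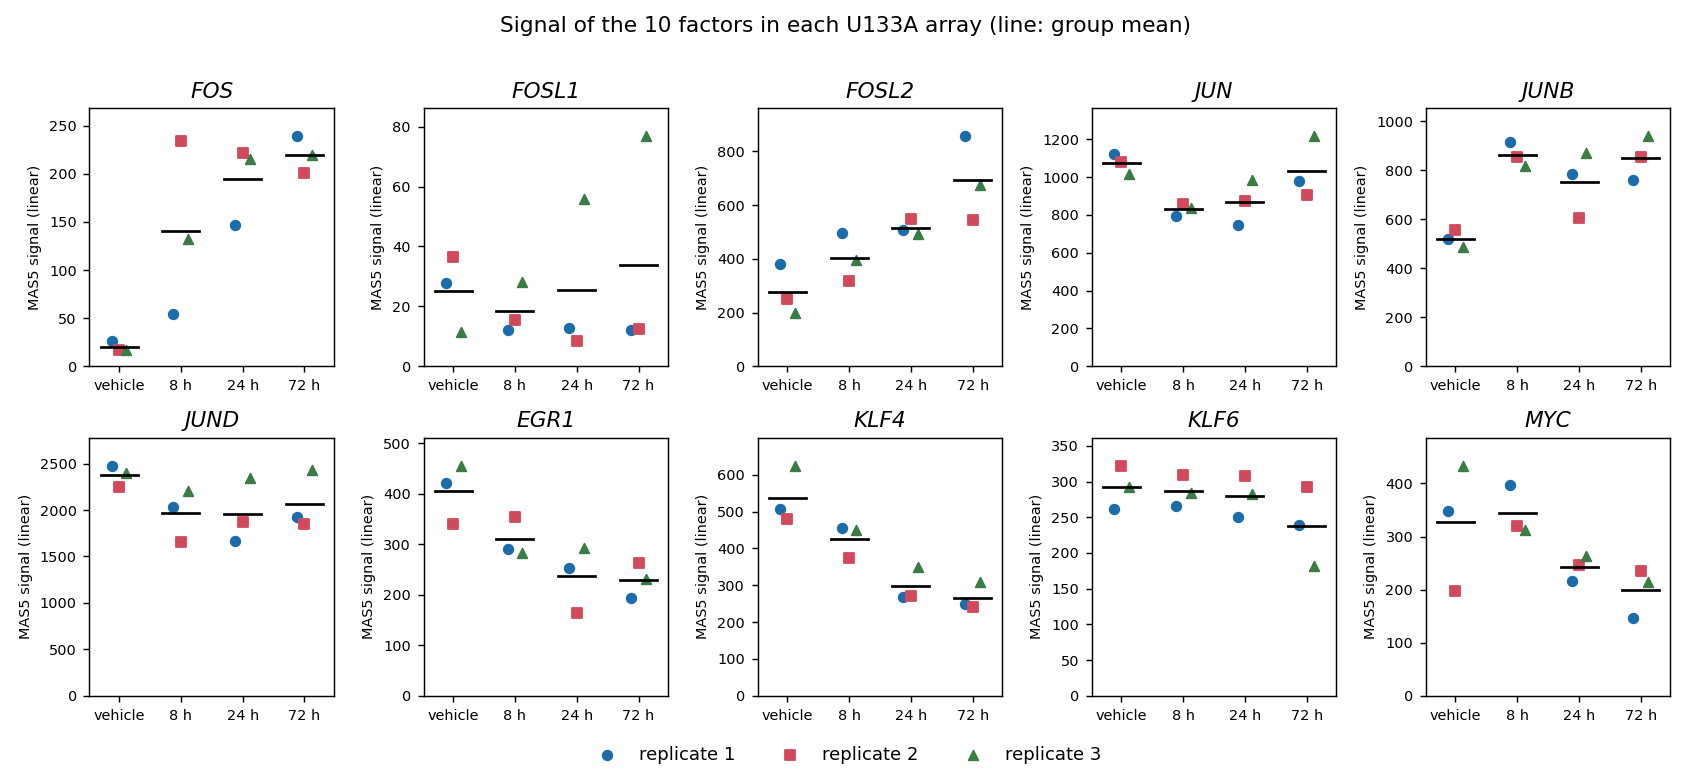
MAS5 signal (vertical axis, linear, from 0) of the 10 genes on each of the 12 U133A arrays, by group on the horizontal axis, with points for single arrays and lines for the group mean. The 3 FOS values at each treated time lie above all vehicle values, the JUNB values do so as well, and the KLF4 values at each treated time lie below all vehicle values.

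**Figure D2:**
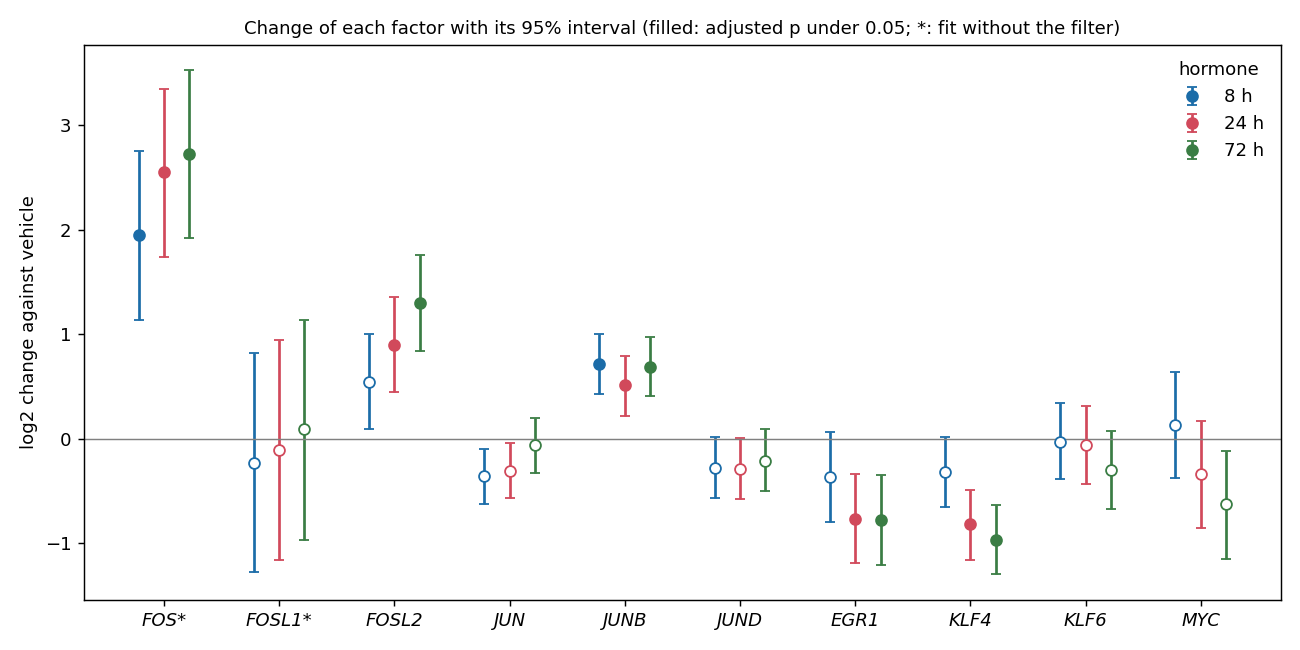
log2 change of each gene against vehicle at 8, 24 and 72 h (axis in log2 units), with 95% intervals from the limma model and filled points where the adjusted p is under 0.05. FOS and FOSL1 come from the model without the filter on low signals, and the largest changes are those of FOS, 1.95, 2.55 and 2.72.

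The promoters of the 5 genes with a call are shown because AP-1, serum response factor and the vitamin D receptor all act on short DNA elements of this kind. Each is the 250 bases before the RefSeq start on GRCh38.p14, 5′ to 3′ on the gene's strand, and the table holds 8 of the 10 members, all but FOSL1 and MYC. Capitals mark the half-site of the cyclic AMP response element (TGACG, which AP-1 and ATF proteins also bind, on either strand), the TATAAA motif, the CACGTG E-box and the CArG box, the element of serum response factor. They span chr14:75278578-75278827 (+) for FOS, chr2:28392608-28392857 (+) for FOSL2, chr19:12791236-12791485 (+) for JUNB, chr5:138465229-138465478 (+) for EGR1 and chr9:107489770-107490019 (-) for KLF4.
FOS: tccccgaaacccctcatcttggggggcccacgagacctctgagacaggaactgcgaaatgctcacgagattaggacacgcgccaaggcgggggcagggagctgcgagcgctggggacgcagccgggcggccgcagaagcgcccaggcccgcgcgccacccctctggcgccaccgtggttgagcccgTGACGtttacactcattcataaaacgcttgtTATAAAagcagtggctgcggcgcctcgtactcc
FOSL2: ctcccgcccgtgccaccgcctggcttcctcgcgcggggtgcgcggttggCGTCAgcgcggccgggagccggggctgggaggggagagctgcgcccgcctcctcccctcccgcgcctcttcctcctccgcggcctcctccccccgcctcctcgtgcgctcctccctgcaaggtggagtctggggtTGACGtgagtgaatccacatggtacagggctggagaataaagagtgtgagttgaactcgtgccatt
JUNB: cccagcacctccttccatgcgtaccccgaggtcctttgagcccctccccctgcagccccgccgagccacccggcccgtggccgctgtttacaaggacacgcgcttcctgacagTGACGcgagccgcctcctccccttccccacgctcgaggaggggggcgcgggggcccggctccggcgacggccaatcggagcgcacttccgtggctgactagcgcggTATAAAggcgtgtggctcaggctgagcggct
EGR1: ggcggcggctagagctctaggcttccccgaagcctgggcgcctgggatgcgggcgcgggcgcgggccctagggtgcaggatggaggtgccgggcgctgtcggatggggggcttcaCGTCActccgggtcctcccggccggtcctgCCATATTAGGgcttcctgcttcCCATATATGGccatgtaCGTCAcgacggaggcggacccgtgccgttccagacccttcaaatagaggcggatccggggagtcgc
KLF4: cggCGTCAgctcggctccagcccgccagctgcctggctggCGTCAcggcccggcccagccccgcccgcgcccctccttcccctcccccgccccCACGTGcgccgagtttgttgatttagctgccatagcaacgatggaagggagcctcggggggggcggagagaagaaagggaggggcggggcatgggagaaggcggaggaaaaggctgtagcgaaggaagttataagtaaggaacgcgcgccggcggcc

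Among these windows of all 8 members, TGACG was found in 7, all but KLF6, and in 21.2% of 35116 promoters of the same length. The full element TGACGTCA, which contains TGACG, was found in JUND alone among the 8 and in 1.65% of all promoters. EGR1 held 2 CArG boxes, at 105 to 96 and 83 to 74 bases before the start, an element found in 1.16% of all promoters. FOS and JUNB each held TATAAA, from 33 and from 31 bases before the start, which 10.7% of promoters hold, and CACGTG was found in KLF4 and KLF6 and in 6.34% of promoters. The AP-1 site TGACTCA (4.2% of promoters) and the direct repeat type of vitamin D response element with a 3-base spacer (0.0655%) were found in 0 of the 8 windows on either strand. A match or its absence describes only these letters in this window, and elements further upstream, of FOS or any other member, were not searched. Genes that rose and genes that fell both held the TGACG half-site.

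FOS, the founding AP-1 subunit, had the largest fitted change of the 10 genes at each time. Its single probe set read 26.6, 16.8 and 16.7 on the vehicle arrays, 54, 234.3 and 132.2 at 8 h, 146.7, 221.9 and 215.7 at 24 h and 239.2, 200.8 and 219.5 at 72 h. All 9 treated values were higher than all 3 vehicle values, and the 8 h values spread more than those of the later times. The means were 20 ± 5.7 (SD, n = 3) with vehicle, 140.2 ± 90.4 at 8 h, 194.8 ± 41.7 at 24 h and 219.8 ± 19.2 at 72 h.

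In the model without the filter, FOS rose by 1.95 (SE 0.37, adjusted p = 0.042) at 8 h on the log2(signal + 15.833) scale, by 2.55 (adjusted p = 0.0022) at 24 h and by 2.72 (adjusted p = 0.00079) at 72 h. The vehicle signals lay near the 10th percentile of their arrays, which ran from 13.4 to 17.7, so the size of the change depends on the number added before the logarithm. With a smaller number, 3.96, the changes were 2.39, 3.05 and 3.24, and with a larger one, 63.3, they were 1.19 (adjusted p = 0.12), 1.62 and 1.76. The 8 h call ended in 11 of the 12 fits that leave out 1 array, all but the one without 8 h replicate 1 (adjusted p up to 0.17, change 1.51 to 2.08). It also ended in 5 other settings, while the 24 h and 72 h calls passed in all 22 alternatives.

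FOSL2 (FRA2), a FOS-related AP-1 subunit with a longer-lived induction in many cells, was called higher at 24 and 72 h. Its signals were 381.5, 250.2 and 199.3 with vehicle, 495.2, 319.1 and 396.6 at 8 h, 505.9, 546.4 and 490.9 at 24 h and 857, 545.8 and 675.6 at 72 h. The 8 h values overlapped those of vehicle, and all values at 24 and 72 h were higher than every vehicle value. FOSL2 rose 1.87-fold at 24 h (log2 change 0.90, SE 0.21, adjusted p = 0.024) and 2.46-fold at 72 h (1.30, adjusted p = 0.001), while the 8 h change was 0.54 (adjusted p = 0.53, 95% interval 0.09 to 1.00). The 24 h call ended without vehicle replicate 2 or 3, without any of the 24 h arrays (adjusted p up to 0.13) and without the filter (0.061). The 72 h call passed in all 24 alternatives.

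Both other FOSL2 probe sets were above the filter when each probe set was fitted on its own. The probe set 218881_s_at read 245.8, 220.7 and 237.3 with vehicle and 433.6, 325.8 and 391.3 at 8 h. It changed by 0.67 at 8 h (limma, adjusted p = 0.32) and rose by 1.10 at 24 h (adjusted p = 0.0047) and by 0.98 at 72 h (adjusted p = 0.0073). The probe set 205409_at changed by 0.54, 0.68 and 0.87 at 8, 24 and 72 h without passing the test (adjusted p = 0.91, 0.26 and 0.074). The 3 probe sets thus had changes of one sign at each time. At 8 h the values of 218881_s_at and 205409_at were all higher than their vehicle values, unlike those of the main probe set.

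FOSL1 (FRA1), the AP-1 subunit best known from invasive epithelial tumours, was at the low end of the U133A array. It read 27.7, 36.5 and 11.3 with vehicle, 12.2, 15.3 and 28.3 at 8 h, 12.8, 8.32 and 55.8 at 24 h and 12.2, 12.5 and 76.9 at 72 h. Replicate 3 was the highest array at each treated time and the lowest with vehicle, and all groups overlapped. The changes were -0.23, -0.11 and 0.09 (adjusted p = 1, 0.97 and 0.97). The 95% interval at 72 h ran from -0.97 to 1.14, so the data are compatible with a fall, a rise or no change within it.

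JUNB, an AP-1 partner that is itself a target of MAP kinase and cytokine signals, was the only member above the filter that passed the test at all 3 times. Its signals were 517.4, 554.8 and 486.7 with vehicle, 917, 852.1 and 816.7 at 8 h, 785.8, 603.3 and 869.3 at 24 h and 759.2, 852.3 and 939.7 at 72 h. All 9 treated values were higher than all 3 vehicle values, with 24 h replicate 2 nearest to them. JUNB rose 1.64-fold at 8 h (log2 change 0.71, SE 0.13, adjusted p = 0.013), 1.42-fold at 24 h (0.51, adjusted p = 0.043) and 1.61-fold at 72 h (0.69, adjusted p = 0.0038).

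The 8 h call of JUNB was lost on leaving out 1 array in 4 cases, namely vehicle replicates 1 and 3 and 8 h replicates 1 and 2 (adjusted p up to 0.086). The 24 h call ended in 9 of 12 fits that leave out 1 array (adjusted p up to 0.17, change 0.40 to 0.55) and in 4 other settings (up to 0.086), and the 72 h call passed in all 24 alternatives.

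JUN, the AP-1 subunit with the strongest activating potential of its family, went the other way by a small amount. The probe set with the highest mean read 1120, 1081 and 1015 with vehicle, 793.8, 855.3 and 836.7 at 8 h, 745.2, 875.9 and 986.1 at 24 h and 979.3, 905.9 and 1217 at 72 h. All 8 h and 24 h values were lower than all vehicle values, and the 72 h values overlapped them. The changes were -0.36 (95% interval -0.63 to -0.10, adjusted p = 0.36), -0.31 (adjusted p = 0.25) and -0.06 (adjusted p = 0.85), and none passed the test. Of the other JUN probe sets, 201466_s_at changed by -0.43, -0.26 and -0.28 and 213281_at by -0.13, -0.45 and 0.01, again without passing, and 201465_s_at, from 19.7 to 43 over the 12 arrays, was below the filter.

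JUND, the AP-1 subunit that most cells hold at a steady level, read 2479, 2252 and 2395 with vehicle and 2034, 1660 and 2207 at 8 h, so that the 8 h values were all lower. At 24 h it read 1666, 1872 and 2342 and at 72 h 1920, 1847 and 2434, and both groups overlapped vehicle. The changes of -0.28, -0.29 and -0.21 did not pass the test (adjusted p = 0.83, 0.36 and 0.44). The other JUND probe sets, 203751_x_at and 214326_x_at, lay below the filter and overlapped vehicle at every time.

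EGR1, a zinc finger factor and a classic marker of MAP kinase activity, was called lower at 24 and 72 h by one probe set. It read 420.4, 340.1 and 455.8 with vehicle, 291, 354.7 and 282.8 at 8 h, 253, 163.9 and 292.8 at 24 h and 193.6, 263.3 and 231.6 at 72 h. The 8 h values overlapped vehicle, and all 24 h and 72 h values were lower than every vehicle value. EGR1 fell by 0.77 on the log2 scale at 24 h (SE 0.20, 1.70-fold, adjusted p = 0.043) and by 0.78 at 72 h (1.72-fold, adjusted p = 0.027), and the test of any time did not pass (adjusted p = 0.064).

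The second EGR1 probe set, 201693_s_at, did not share the 72 h difference. It read 134.3, 249.2 and 234.2 with vehicle, 124.6, 122.3 and 128.6 at 24 h and 167.8, 239 and 234.2 at 72 h, and its changes were -0.07, -0.61 (adjusted p = 0.23) and 0.08 (adjusted p = 0.91). With the mean of both probe sets the 72 h change of EGR1 was -0.35 (adjusted p = 0.29), and that call also ended without the filter (0.062) and on leaving out vehicle replicate 1, vehicle replicate 3, 72 h replicate 1 or 72 h replicate 3 (up to 0.12). The 24 h call ended in 8 of 12 fits that leave out 1 array (adjusted p up to 0.18) and in 4 other settings (up to 0.098).

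KLF4, a zinc finger factor of epithelial differentiation and cell cycle arrest, had the lowest p in the test of any time among the 8 members above the filter. Its signals were 505.9, 478.7 and 624.7 with vehicle, 454.2, 374.8 and 450.7 at 8 h, 269.4, 270.7 and 349.7 at 24 h and 247.8, 241.3 and 308.8 at 72 h. All 9 treated values were lower than all vehicle values, and those of 24 and 72 h were also lower than all 8 h values. KLF4 fell by 0.82 at 24 h (SE 0.16, 1.77-fold, adjusted p = 0.005) and by 0.97 at 72 h (1.96-fold, adjusted p = 0.00091), while the 8 h change was -0.32 (adjusted p = 0.83, 95% interval -0.65 to 0.02).

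The second KLF4 probe set, 220266_s_at, read 171.6, 183.8 and 166.7 with vehicle and 79.6, 115.7 and 131.3 at 72 h. All its 72 h values were lower than every vehicle value, and its changes of -0.33, -0.35 and -0.63 did not pass the test (adjusted p = 0.18 at 72 h). With the mean of both probe sets the 24 h change was -0.58 (adjusted p = 0.088), the only alternative that ended the 24 h call. The 72 h call passed in all 23 alternatives in which KLF4 was tested.

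KLF6, a related factor known as a growth suppressor, stayed close to vehicle. It read 261.9, 322.4 and 292.6 with vehicle, 265.8, 309.7 and 283.6 at 8 h, 249.7, 308.1 and 282.6 at 24 h and 238.5, 292.3 and 182.4 at 72 h. Replicate 2 was the highest array in every group. The changes were -0.03 (95% interval -0.39 to 0.34), -0.06 and -0.30 (adjusted p = 1, 0.93 and 0.36), and the other KLF6 probe sets, 208961_s_at and 208960_s_at, were below the filter.

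MYC, the growth-promoting factor, spread widely with vehicle. It read 349, 196.7 and 433.7 with vehicle, 397.9, 319.9 and 312.7 at 8 h, 216.7, 246.5 and 263.6 at 24 h and 145.8, 235.1 and 214.8 at 72 h. Every treated group overlapped vehicle, at 24 and 72 h only through vehicle replicate 2. The changes were 0.13, -0.34 and -0.63 (adjusted p = 1, 0.59 and 0.14), with a 95% interval at 72 h from -1.15 to -0.12. Without vehicle replicate 2, MYC fell by 0.94 at 72 h (adjusted p = 0.015). MYC did not pass at 72 h in 22 of 23 alternatives, so this call appeared only on leaving out that 1 array.

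**Figure D3:**
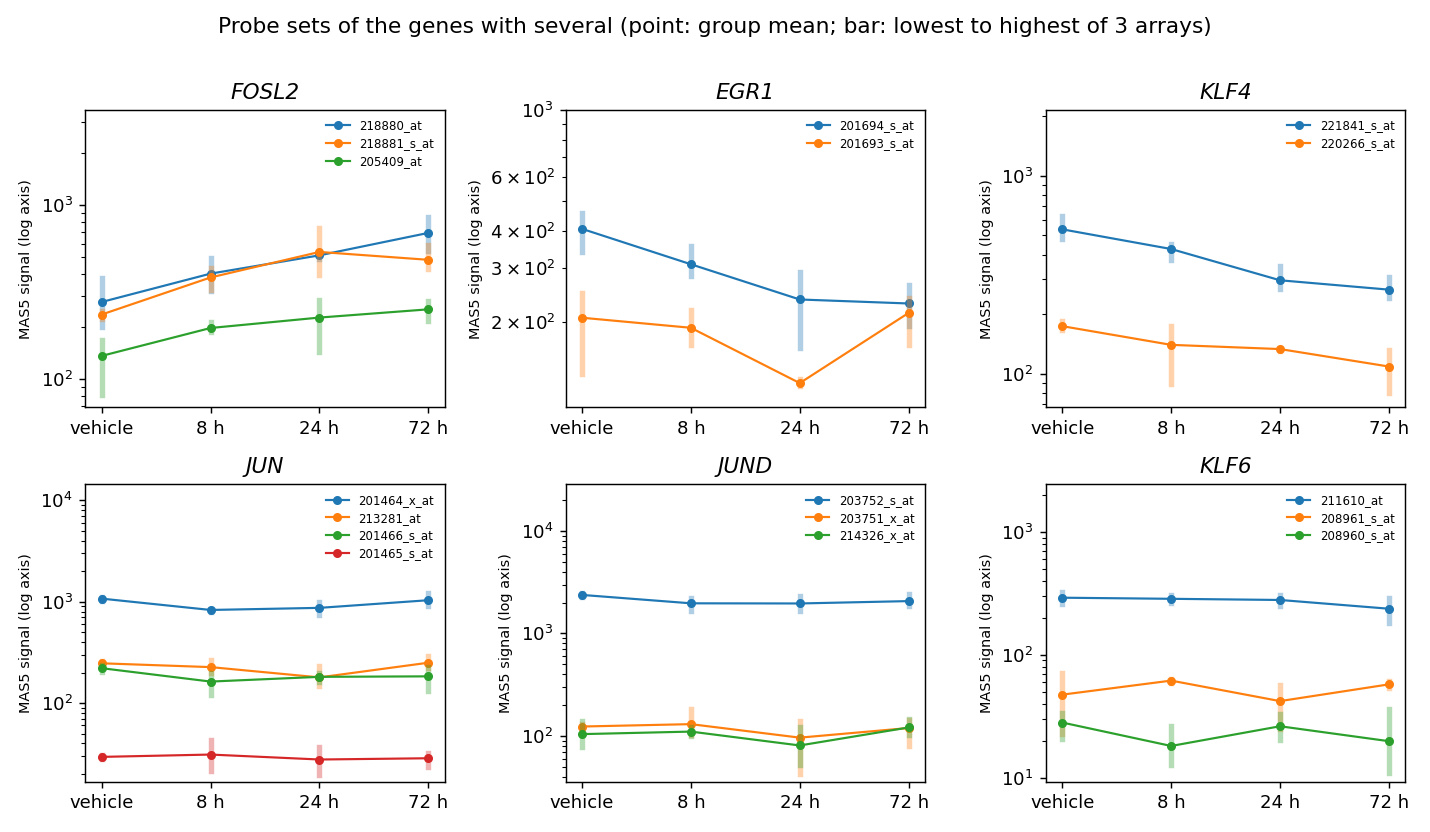
MAS5 signal (vertical axis, log scale) of every U133A probe set of the 6 genes with several, by group, with points for group means of 3 arrays and bars from the lowest to the highest array. The group means of the FOSL2 probe sets were all higher at 8, 24 and 72 h. Of these, 205409_at overlapped vehicle at 24 h and did not pass the test at any time. The EGR1 probe sets parted at 72 h, and no JUN, JUND or KLF6 probe set above the filter passed the test.

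In bulk RNA a lower signal from fewer cells of a kind and one from less RNA per cell cannot be told apart, and signals from 1 probe set carry no second reading. FOS, FOSL1, JUNB and MYC were the 4 genes with 1 probe set. Counted by values that do not overlap, 2 of the 10 genes lay wholly above vehicle at 8 h (FOS and JUNB) and 3 wholly below (JUN, JUND and KLF4), against 5.87% and 6.28% of all 11963 genes. At 24 h 3 lay above (FOS, FOSL2 and JUNB) and 3 below (JUN, EGR1 and KLF4), against 7.39% and 9.86%. At 72 h 3 lay above (the same as at 24 h) and 2 below (EGR1 and KLF4), against 8.86% and 10.2%. The median change of the 10 genes in the model without the filter was -0.13, -0.20 and -0.13 at the 3 times, and that of all 11963 genes -0.007, -0.03 and -0.02.

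Between treated times, KLF4 was the one member whose change passed the test. It fell by 0.65 from 8 to 72 h (SE 0.16, 1.57-fold, adjusted p = 0.036), 1 of 8 members against 2.52% of all tested genes. From 8 to 24 h, where 0.641% of all genes were called, limma called 0 of the 8 members (1 had an unadjusted p under 0.05, KLF4, with -0.51 and adjusted p = 0.26). From 24 to 72 h, where 0.153% were called, 0 of 8 were called and 0 had an unadjusted p under 0.05. From 8 to 72 h FOSL2 changed by 0.75 (adjusted p = 0.085), MYC by -0.76 (adjusted p = 0.13) and JUN by 0.30 (adjusted p = 0.27), and FOS, without the filter, by 0.78 (adjusted p = 0.48). The KLF4 call between 8 and 72 h ended in 6 of 12 fits that leave out 1 array, namely vehicle replicate 1, any of the 8 h arrays, and 72 h replicate 1 or 2 (adjusted p up to 0.15), and in 5 other settings (up to 0.21). With a replicate block FOSL2 also passed from 8 to 72 h (adjusted p = 0.023), and without vehicle replicate 1 it did so too (0.043).

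The U95 arrays gave a second reading with other probe sets and 1 array per time, so no test was made. The log2 ratio to the vehicle array is used, with 13.87 added to each signal. All 3 FOS probe sets were higher at every time. The probe set 1916_s_at read 89.5 with vehicle and 212.4, 219.5 and 264.3 at 8, 24 and 72 h (log2 ratios 1.13, 1.17 and 1.43), 1915_s_at had ratios of 0.46, 0.86 and 0.89, and 2094_s_at had ratios of 0.26, 0.28 and 0.30. FOSL2 read 955.4 with vehicle and 1181, 1330 and 1411 later (0.30, 0.47 and 0.56). On both array types the treated FOS and FOSL2 signals, by group mean on U133A, thus lay above vehicle at each time.

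The JUNB probe sets parted on U95. The ratios of 2049_s_at were 0.50, 0.19 and 0.44, while 32786_at went from 811 with vehicle to 1060, 684.5 and 546.7 (0.38, -0.24 and -0.56), below vehicle at 24 and 72 h and opposite to U133A. EGR1 read 458.5 with vehicle and 248, 253.2 and 331 later (-0.85, -0.82 and -0.45). KLF4 read 96.1, 61.7, 91.6 and 94.7, with ratios of -0.54, -0.06 and -0.02, so the 24 and 72 h arrays did not show the difference seen on U133A.

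The 4 MYC probe sets of U95 had ratios from -0.90 to -0.34 at 72 h. At 8 h they ran from -0.32 to 0.10. Those of JUN were -0.15, -0.60 and -0.14 for 1895_at and -0.29, -0.45 and 0.08 for 32583_at, KLF6 had -0.08, -0.32 and -0.36, and FOSL1, which read 570.9 with vehicle, had -0.17, 0.14 and -0.42. The JUND probe sets 1612_s_at and 41483_s_at stayed between -0.09 and 0.13, and 41484_r_at, which read 94.6 with vehicle, had 0.35, 0.04 and 0.66.

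Counted past 1.5-fold, 1, 2 and 3 of the 19 U95 probe sets were higher at 8, 24 and 72 h, against 6.82%, 6.79% and 7.52% of the 10961 probe sets with 1 gene. Lower past 1.5-fold were 1, 2 and 1, against 10.1%, 14.2% and 16.1%. The median log2 ratio of all probe sets was -0.038, -0.082 and -0.113. With each U95 array centred on its own median log2 signal, the 72 h ratios of the JUN probe sets 1895_at and 32583_at were 0.03 and 0.24. These counts share their vehicle array and hold no spread between replicates.

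**Figure D4:**
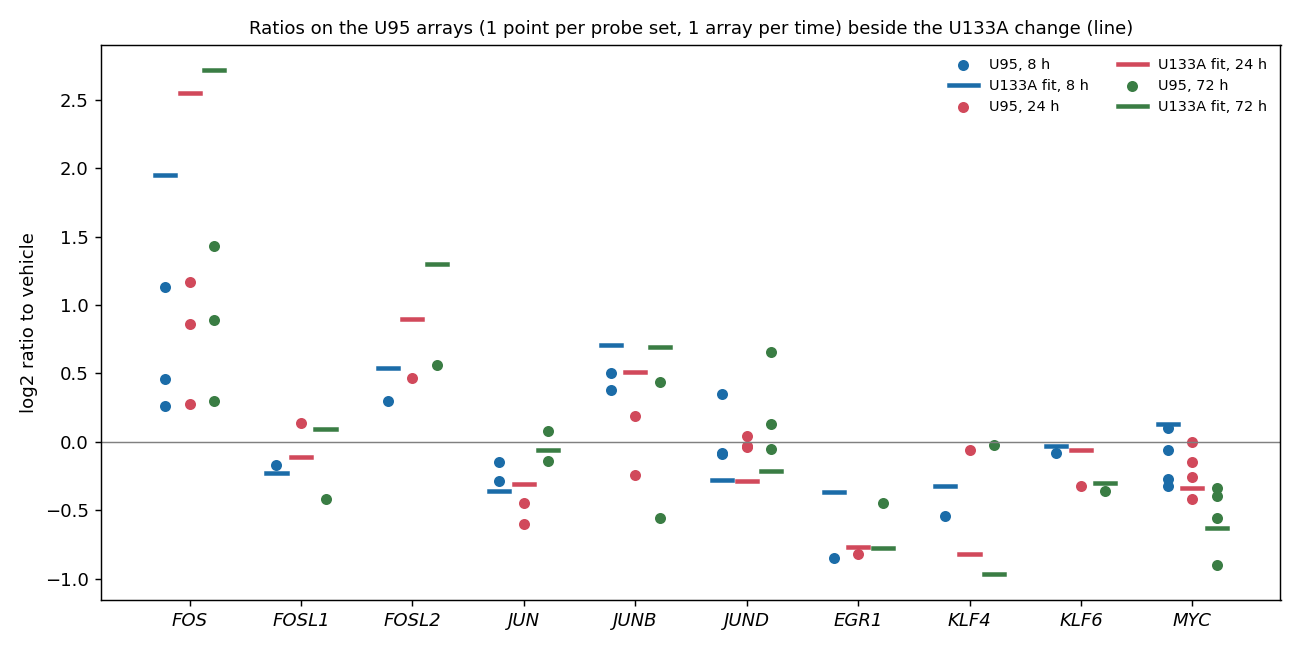
log2 ratio to the vehicle array of each of the 19 U95 probe sets at 8, 24 and 72 h (axis in log2 units), grouped by gene, 1 array per time, with lines for the U133A change of the gene. The FOS and FOSL2 points lie above 0 at all times, the EGR1 points lie below 0, and the JUNB probe sets separate at 24 and 72 h.

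Genes that partner with, lie upstream of or lie downstream of these factors were taken from lists written from textbook knowledge. The lists were chosen with earlier results of these data known. Their counts stand beside 0.766%, 4.07% and 6.84% of all tested genes called at 8, 24 and 72 h, and most genes of each list did not pass the test. Of 4 other AP-1 and bZIP partners tested, 0 were called at 8 and 24 h and 1 at 72 h. This was ATF3, a stress-induced JUN partner, with means of 332.2 ± 75.1 with vehicle and 570.2 ± 126.8 at 72 h (log2 change 0.76, adjusted p = 0.034). Of 17 other immediate early genes, 0, 3 and 2 were called higher at 8, 24 and 72 h and 0 lower. SGK1, a serum- and steroid-induced kinase, rose by 0.89 at 24 h (adjusted p = 0.017) and by 0.86 at 72 h (adjusted p = 0.015), and PLK2, a stress-responsive polo kinase, by 0.35 and 0.42 (adjusted p = 0.027 and 0.0055). TIPARP, an ADP-ribosyltransferase, rose by 0.56 at 24 h (adjusted p = 0.035).

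The list of kinases and serum response factors upstream had 12 tested genes, of which 1, 2 and 2 were called higher and 0 lower. ETS2, an ETS family factor, had means of 285.5 ± 4.66 with vehicle and of 568 ± 76.1, 541.9 ± 92.3 and 603.6 ± 80.8 at 8, 24 and 72 h, and rose by 0.95, 0.88 and 1.03 (adjusted p = 0.0027, 0.0017 and 0.00028). ELK3, a ternary complex factor that can repress FOS transcription, changed by 0.79 at 8 h (adjusted p = 0.086) and rose by 0.85 and 0.84 at 24 and 72 h (adjusted p = 0.016 and 0.012). Of 8 other KLF factors, 1 was called, KLF10, a TGF-beta inducible factor, which rose by 0.39 at 72 h (adjusted p = 0.023).

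Of 13 known AP-1 targets tested, 0 were called at 8 h, 1 higher and 2 lower at 24 h and 2 higher and 2 lower at 72 h, so that 13, 10 and 9 did not pass. CXCL8, a neutrophil chemokine, had means of 2476 ± 569 with vehicle, 1032 ± 172.5 at 24 h and 1289 ± 218.1 at 72 h, and fell by 1.24 and 0.92 at these times (adjusted p = 0.00015 and 0.0013). IL6, an inflammatory cytokine, fell by 1.35 and 1.19 (adjusted p = 0.0014 and 0.0027). PLAUR, the urokinase receptor, rose by 0.65 and 0.75 (adjusted p = 0.0019 and 0.00038), and TGFB1, a growth-inhibiting cytokine, by 0.75 at 72 h (adjusted p = 0.033).

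The list of MYC partners and antagonists had 6 tested genes, of which limma called 0 at each time. Of 16 MYC targets, 0, 0 and 1 were called, a share at 72 h near that of all tested genes. The one was ODC1, the first enzyme of polyamine synthesis, which rose by 0.43 at 72 h (adjusted p = 0.0053), from 6089 ± 347.6 to 8180 ± 385.1. The median change of the MYC targets was 0.06, 0.09 and 0.00 at the 3 times and that of the AP-1 targets 0.02, 0.01 and -0.01, beside -0.004, -0.016 and -0.015 over all tested genes.

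The genes whose log2 course over the 9 treated arrays lay nearest to that of a member were found for the 3 members above the filter with the lowest p in the test of any time. For KLF4 these were CRYAB, a small heat shock protein, IFNGR1, the interferon gamma receptor, and SDC4, a heparan sulfate proteoglycan, at root mean square differences of 0.12, 0.17 and 0.17, where the median gene differed by 0.78. CRYAB fell by 0.96 and 0.99 at 24 and 72 h. For FOSL2 they were ID3, an inhibitor of basic helix-loop-helix factors, IGF1, a growth factor, and TENT5A, a poly(A) polymerase, at 0.18, 0.19 and 0.20 (median gene 1.00). ID3 rose by 0.74 and 1.17 at 24 and 72 h, while IGF1 did not pass the test at any time (adjusted p = 0.07 at 72 h). For JUNB they were HRH1, a histamine receptor, INPP1, an inositol phosphatase, and TRAF4, a signalling adaptor, at 0.19, 0.19 and 0.20 (median gene 0.70), and TRAF4 rose by 0.55, 0.54 and 0.58.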

How the data were processed

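RNA of OVCAR3 cells was measured on 12 U133A and 4 U95 arrays. The authors deposited 1 intensity per probe set, made with MAS5 per the submitters' processing notes (version not given in the sources used here), on a linear scale. Each array's 2% trimmed mean was 500.2, so the authors' values were used without further scaling. Detection calls were not used here. Genes come from the platform annotation, and promoters from RefSeq (GRCh38.p14).

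In R 4.3.3, log2(value + 15.833) was taken, the added number being the 10th percentile over the U133A arrays (13.87 for U95). The probe set with the highest mean log2 value stood for each gene, and genes under the 40th percentile of mean were left out, leaving 7178 of 11963. limma 3.58.1 (eBayes with trend) was fitted to all 12 arrays with 1 term per group and 8 residual degrees of freedom. P values were adjusted by Benjamini-Hochberg across the genes of each fit, with a threshold of 0.05, and intervals and SE come from the same fit. Array weights used statmod 1.5.0. The scripts were tested on simulated data.

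The members, the gene lists and the alternatives were chosen with earlier results of these data known. Named beside the members were, from each list other than markers, up to 4 genes past the threshold with the lowest p over the 3 times, CYP24A1 and GADD45A, and the 3 genes nearest in course to each of 3 members. To see whether replicate numbers pair the arrays, each array's deviation from its group mean was correlated with that of the array of the same number. All 3 pairs passed 0.1 between the 8 and 24 h groups (0.108 to 0.157) and between the 24 and 72 h groups (0.103 to 0.187). In the comparisons with vehicle and between 8 and 72 h, 1 or 2 of 3 pairs passed 0.1. Every same-number correlation was above 0, the lowest being 0.052, between 8 and 72 h. The array of the same number was the best match for 3 of 3 arrays in each comparison with vehicle, between 8 and 24 h and between 24 and 72 h. Between 8 and 72 h it was so for 2 of 3. The main fit held no replicate term, and a replicate block was fitted as an alternative.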

Additional observations from a re-analysis of the deposited data

Results flagged for a closer look

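KLF4 differed between treated times, by a test of the difference itself: its log2 change from 8 to 72 h was -0.65 (limma, adjusted p = 0.036). The 3 values at 72 h (247.8, 241.3 and 308.8) all lay below the 3 at 8 h (454.2, 374.8 and 450.7). The second KLF4 probe set changed by -0.30 from 8 to 72 h (limma, adjusted p = 0.7) and the mean of both by -0.48 (adjusted p = 0.21). The call ended in 6 of 12 fits that leave out 1 array, among them any of the 8 h arrays, and in 5 other settings. On the single U95 arrays KLF4 read 61.7 at 8 h and 94.7 at 72 h, the opposite order.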

How the results depend on the processing

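Of 810 log2 changes of members under an alternative, 727 kept their direction and their side of the threshold, 69 lost the call, 3 gained one and 11 reversed, all 11 with 1 array left out and none past the threshold. Those ranges were -0.59 to 0.20 and -0.49 to 0.37 for FOSL1 at 24 and 72 h, -0.18 to 0.03 for JUN at 72 h, -0.10 to 0.04 and -0.13 to 0.02 for KLF6 at 8 and 24 h, and -0.18 to 0.36 for MYC at 8 h. With 1 array left out, members called against vehicle numbered 0 to 1 at 8 h, 1 to 4 at 24 h and 3 to 5 at 72 h, 0 to 1 from 8 to 72 h, and 2 to 4 by the test of any time. Against vehicle at 8 h, 2 members were called without the filter. At 24 h 2 were called without the filter, with the 60th percentile filter (which tests fewer members), with every probe set as its own row and with only the 2 groups compared. At 72 h 2 were called with the 60th percentile filter. From 8 to 72 h 0 were called without the filter, with the 60th percentile filter, median centring, the mean of the probe sets, array weights or only the 2 groups compared, and 2 (FOSL2 and KLF4) with the replicate block. The cause was not tested. The replicate block called 1, 4 and 4 members against vehicle, and the FOS call at 8 h was lost (adjusted p = 0.054). Over all genes, 116 were lower at 24 h, and 72 with median centring, 188 with the replicate block and 201 with array weights, 65 to 129 with 1 array left out. At 72 h the 214 lower genes became 119 to 231, and at 8 h the 51 higher and 4 lower genes became 34 to 54 and 2 to 6. The lower count at 8 h was 7 with 4 times the added number and with the mean of the probe sets, 2 with the 60th percentile filter, 15 with the replicate block, 12 with array weights, 8 with eBayes without trend and 16 with only the 2 groups compared. From 8 to 72 h, 99 higher and 82 lower genes became 163 and 129 with the replicate block and 63 to 112 and 40 to 92 with 1 array left out. From 8 to 24 h, 26 and 20 became 16 and 6 without the filter and 54 and 36 with the replicate block, and 7 to 29 and 4 to 20 with 1 array left out. Median centring gave 17 and 11 there, eBayes without trend 15 and 12, and array weights 31 lower. From 24 to 72 h, 6 and 5 became 14 and 11 with the replicate block, 3 and 1 without the filter or with eBayes without trend, 3 and 2 with median centring, and 2 to 5 and 1 to 8 with 1 array left out. On U133A, signals near the low end of the array limit FOS with vehicle and FOSL1 in all groups. The U95 probe set of FOSL1 read from 422.7 to 631.2, where the 10th percentile of the U95 values was 13.87.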
